A study of Mus musculus with 4 samples.

Results

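The genes described here were the mouse genes tied to calcium-activated chloride currents, and they comprised Clca3a1 and Clca3a2 of the CLCA family and Ano1, Ano2, Ano5, Ano6 and Ano10 of the anoctamin family. These were 7 of 24489 named genes on the array, measured by 9 of its 39429 probes, every probe that the array files name for one of the genes being used. The list was put together with results of these arrays already known, so that the genes count as selected on the log2 ratio between the genotypes. Ratios between genotypes are therefore a description. Whether the fit across all probes called one of these probes is given as a count from which nothing is read. Tests of these genes are kept to their level by the sex of the pools, which the choice did not use.

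The tissue was the basal part of the organ of Corti of mice at embryonic day E18.5 on an NMRI background. Organs of the Sox2-Tbx2LOF genotype, Sox2(creERT2) with both Tbx2 alleles floxed, were compared with organs of cre-negative embryos that carried the floxed allele, Tbx2(fl/n.d.). All dams had received 4 mg of tamoxifen at E16.5. Each of 4 arrays carried 1 Sox2-Tbx2LOF pool and 1 control pool of several organs, female on arrays 1 and 2 and male on arrays 3 and 4, with the mutant RNA in the Cy3 channel on arrays 1 and 3 and in the Cy5 channel on arrays 2 and 4. The pools were independent and sorted by sex. Cre was driven from the Sox2 locus, so recombination was limited to cells that expressed Sox2, and the loss of Tbx2 and the presence of the Sox2(creERT2) allele cannot be told apart. In tissue pools, a change in the number of cells of a type and a change in RNA per cell cannot be told apart either.

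The genes fall into different roles. Anoctamins span the membrane many times. ANO1 (TMEM16A) and ANO2 are chloride channels opened by intracellular calcium, and ANO1 in the inner supporting cells of the immature cochlea carries the chloride efflux that follows ATP release and calcium release from stores. ANO6 is mainly known as a calcium-dependent phospholipid scramblase, and ANO5 and ANO10 are intracellular anoctamins linked to muscle disease and to cerebellar ataxia. CLCA proteins are not channels themselves but secreted or shed, self-cleaving proteins, some of which raise the calcium-activated chloride current of other channels.

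Levels are given as log2 fluorescence intensity after background correction and normalization within the array, and a ratio is the log2 difference between the Sox2-Tbx2LOF and the control pool of an array. A probe was tested where it lay well above background, by the scanner software's own flag, on at least 3 of 4 arrays in 1 of the genotypes. Of the 9 probes, 8 met this, and all 8 lay well above background on 4 of 4 arrays in both genotypes. The exception was the only Ano5 probe, which was above background on none.

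The probes that matter most for the comparison are the 2 of Clca3a1, the one of Clca3a2 and the one of Ano1. The last 30 of the 60 bases of 3 of them are shown, in the sense of the transcript, for identification.

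Clca3a1 A_55_P1982291: tgtaatatagaagttcatattcaaagttga
Clca3a2 A_51_P265806: ctagaagatagtatctctgcactgggtgct
Ano1 A_55_P2038747: tttgtatatagctactgtatccaaaattag

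In mm9, the build of the array files, these probes lie on the minus strand at chr3:144393450-144393509, chr3:144460509-144460568 and chr7:151774604-151774663. None of these 3 probes closely matched another probe on the array. The longest run of bases that another probe shared was 15 for this Clca3a1 probe, 13 for the Clca3a2 probe and 14 for the Ano1 probe.

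The other Clca3a1 probe, A_55_P2039694, lies 469 bases further along the same strand at chr3:144392981-144393040. It differed in this respect. It shared a run of 29 bases with a probe of Mrpl27, a mitochondrial ribosomal protein gene on the same array, and runs of 20 or more bases with 2 probes in all. The 30-base windows that hold the run are shown with the shared bases in capitals.

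Clca3a1 A_55_P2039694: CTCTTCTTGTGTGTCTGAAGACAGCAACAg
Mrpl27 A_55_P2073855: CTCTTCTTGTGTGTCTGAAGACAGCAACAa

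Runs of 20 or more bases shared with a probe of another gene occurred in 6.22% of the 39429 probes. When at least 20 identical bases at 80% identity or more, without gaps, were counted as alike, A_55_P2039694 was alike to 9 other probes, which named 8 other genes, while the remaining 8 probes of the channel genes were alike to none. This measure was chosen after the values of the 2 Clca3a1 probes had been seen.

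Clca3a1 and Clca3a2 stood higher in the Sox2-Tbx2LOF pools by the probes free of such likeness. Clca3a1 (A_55_P1982291) had log2 levels of 8.52, 8.85, 8.80 and 8.68 in the 4 Sox2-Tbx2LOF pools. In the control pools of the same arrays it had 7.70, 7.73, 7.84 and 8.08. The lowest mutant pool was above the highest control pool, and the ratios of 0.82, 1.12, 0.96 and 0.59 gave a mean log2 ratio of 0.87 ± 0.22 (SD, n = 4 arrays), a fold of 1.83. Clca3a2 had log2 levels of 8.29, 8.84, 8.58 and 8.63 in the Sox2-Tbx2LOF pools. Its control pools had 7.68, 7.78, 7.94 and 8.03. These pools did not overlap either, and the ratios of 0.61, 1.06, 0.64 and 0.60 had a mean of 0.73 ± 0.22 (SD, n = 4 arrays), a fold of 1.66. Array 2, a female array, held the highest ratio of both genes, and without it the log2 ratios fitted with the dye term were 0.74 for Clca3a1 and 0.62 for Clca3a2. Both genes were higher on 4 of 4 arrays in either dye orientation, with mean ratios of 0.89 (Cy3) and 0.86 (Cy5) for Clca3a1 and 0.63 and 0.83 for Clca3a2.

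The 2 genes also varied together within a genotype. Over the 8 pools their levels had a Pearson r of 0.98, and within the 4 Sox2-Tbx2LOF pools and the 4 control pools it was 0.90 and 0.92, in all of which both genes share the arrays and their dyes. Likeness in sequence was sought only among array probes. Whether the probe of either gene also read RNA of the other gene was not tested.

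The second Clca3a1 probe showed no such difference. A_55_P2039694 had log2 levels of 15.61, 15.68, 15.43 and 15.72 in the Sox2-Tbx2LOF pools. The control pools had 15.75, 15.47, 15.55 and 15.47. The genotypes overlapped, and the ratios of −0.13, 0.20, −0.11 and 0.26 were negative where the mutant RNA was in Cy3 and positive where it was in Cy5, with a mean of 0.05 ± 0.20 (SD, n = 4 arrays). Over the 8 pools the levels of the 2 Clca3a1 probes had a Pearson r of 0.11. The 2 probes of the gene thus disagreed in ratio and in course over the pools.

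Most probes alike in sequence to A_55_P2039694 were bright and had small ratios, as it did. The 8 that are alike on the same strand, among them probes of Endov, Pirb, Medag and Mrpl27, had log2 levels between 14.37 and 16.68 in every pool and mean ratios between 0.01 and 0.08. Their levels over the 8 pools had a Pearson r of 0.81 to 0.94 with the Clca3a1 probe for 7 of them and 0.98 for Endov, with arrays and dyes shared. The probe alike on the opposite strand, of Nanog, had levels between 7.05 and 7.42 and an r of −0.19. Probes not alike to A_55_P2039694 by this measure followed it as closely, with an r of 0.99 for 4930520P13Rik and 0.97 for Plcd4, Gm10631 and Milr1. The share of all probes that follow it so closely was not determined, so its course is not tied to likeness in sequence. What part RNA other than Clca3a1 had in the signal of A_55_P2039694 was not tested.

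**Figure D1:**
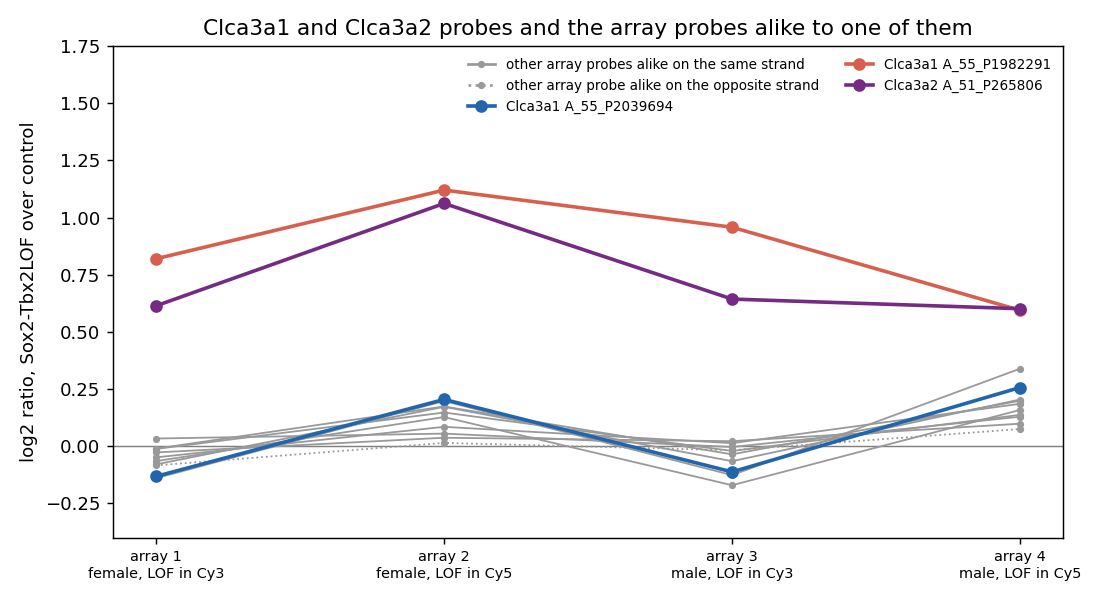
Log2 ratio of Sox2-Tbx2LOF over control on each of the 4 arrays, with sex and the dye of the mutant RNA under each array. Coloured lines are the Clca3a1 and Clca3a2 probes and grey lines the 9 array probes alike in sequence to A_55_P2039694. Clca3a1 A_55_P1982291 and Clca3a2 lie between 0.59 and 1.12 on every array, while A_55_P2039694 moves around 0 with the grey lines.

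Among the anoctamins, Ano1 differed between the genotypes by less but most evenly. Its levels were 14.99, 15.03, 14.98 and 14.93 in the Sox2-Tbx2LOF pools. They were 14.62, 14.57, 14.68 and 14.53 in the control pools. The genotypes did not overlap, and the ratios of 0.38, 0.46, 0.30 and 0.41 had a mean of 0.38 ± 0.07 (SD, n = 4 arrays), a fold of 1.31, with 1 of the 4 spots of the probe left out as an outlier on each array.

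Ano2, the calcium-activated chloride channel best known from olfactory neurons, had levels of 9.40, 9.38, 9.67 and 9.35 in the Sox2-Tbx2LOF pools. The control pools had 9.31, 9.76, 9.87 and 9.83. The mutant pool was the lower one on 3 of 4 arrays, array 1 being the exception, and the genotypes overlapped. The mean ratio was −0.24 ± 0.25 (SD, n = 4 arrays). When 1 array was left out, the ratio fitted with the dye term, which is not a plain mean, ran from −0.17 to −0.31. The mean ratio was −0.06 with the mutant RNA in Cy3 and −0.43 with it in Cy5.

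Ano6 and Ano10 showed no difference beyond the spread. Ano6 had levels between 8.94 and 9.14 in the Sox2-Tbx2LOF pools and between 8.86 and 9.11 in the control pools, and its mean ratio was 0.05 ± 0.20 (SD, n = 4 arrays), positive on both Cy3 arrays and negative on both Cy5 arrays. The 2 Ano10 probes had mean ratios of 0.06 ± 0.15 (A_55_P2040455) and 0.05 ± 0.23 (A_51_P349691), with levels of 10.19 to 10.43 and of 12.49 to 12.87 over all 8 pools. They agree within the spread between arrays. Ano5 had levels between 6.02 and 6.27 in all pools and was not well above background on any array, so that its mean ratio of 0.03 ± 0.12 (SD, n = 4 arrays) describes signal at background.

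**Figure D2:**
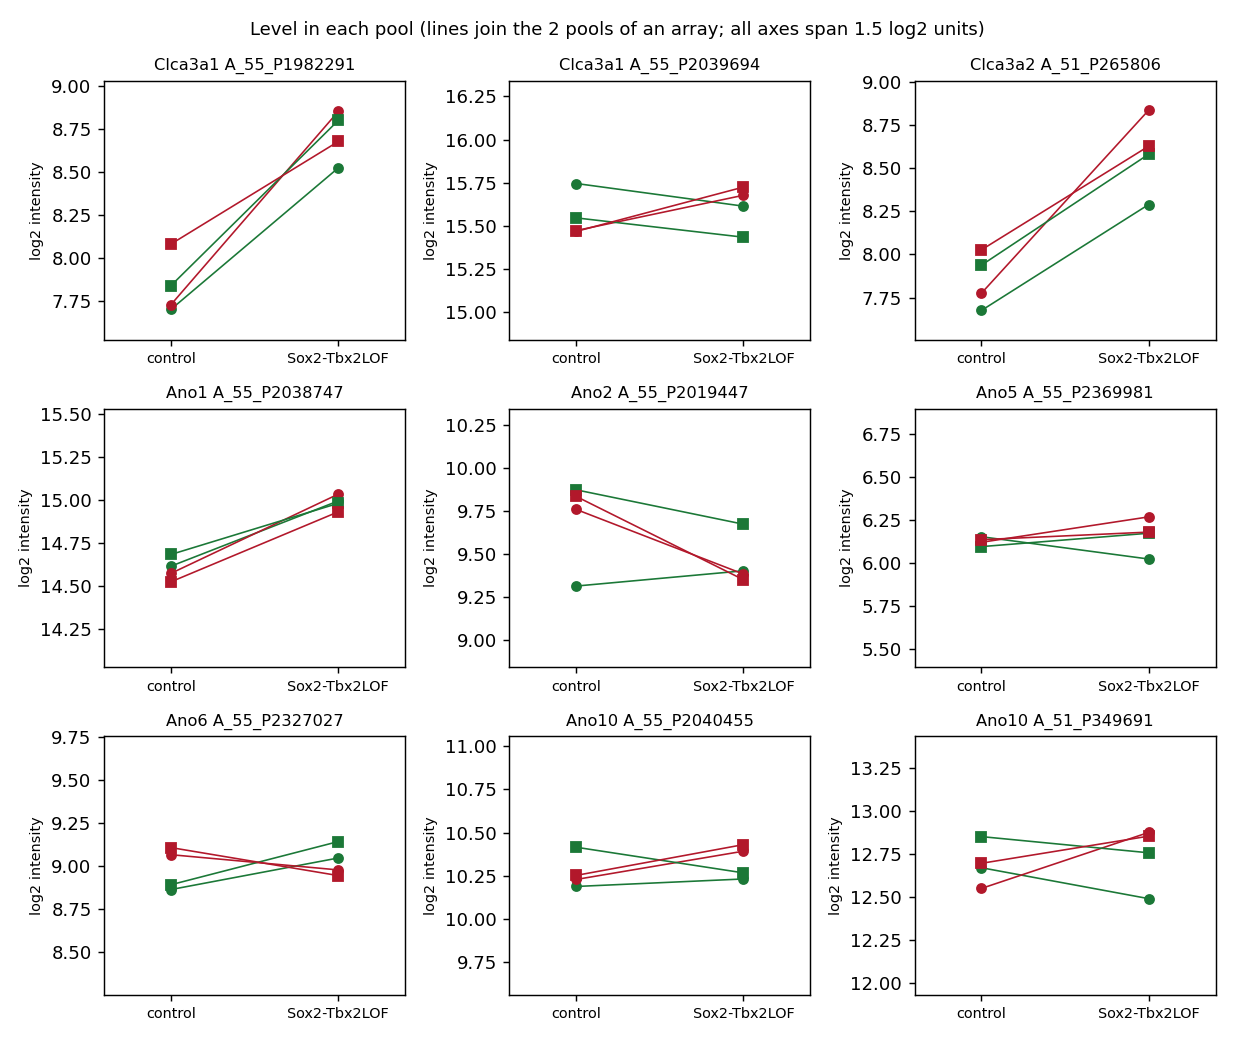
Log2 intensity of each of the 9 probes in the control and Sox2-Tbx2LOF pools, a line joining the 2 pools of an array (circles female, squares male, green for mutant RNA in Cy3, red in Cy5). The axes differ in position but each spans 1.5 log2 units. Mutant and control pools are apart for Clca3a1 A_55_P1982291, Clca3a2 and Ano1 and overlap for the other 6 probes.

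**Figure D3:**
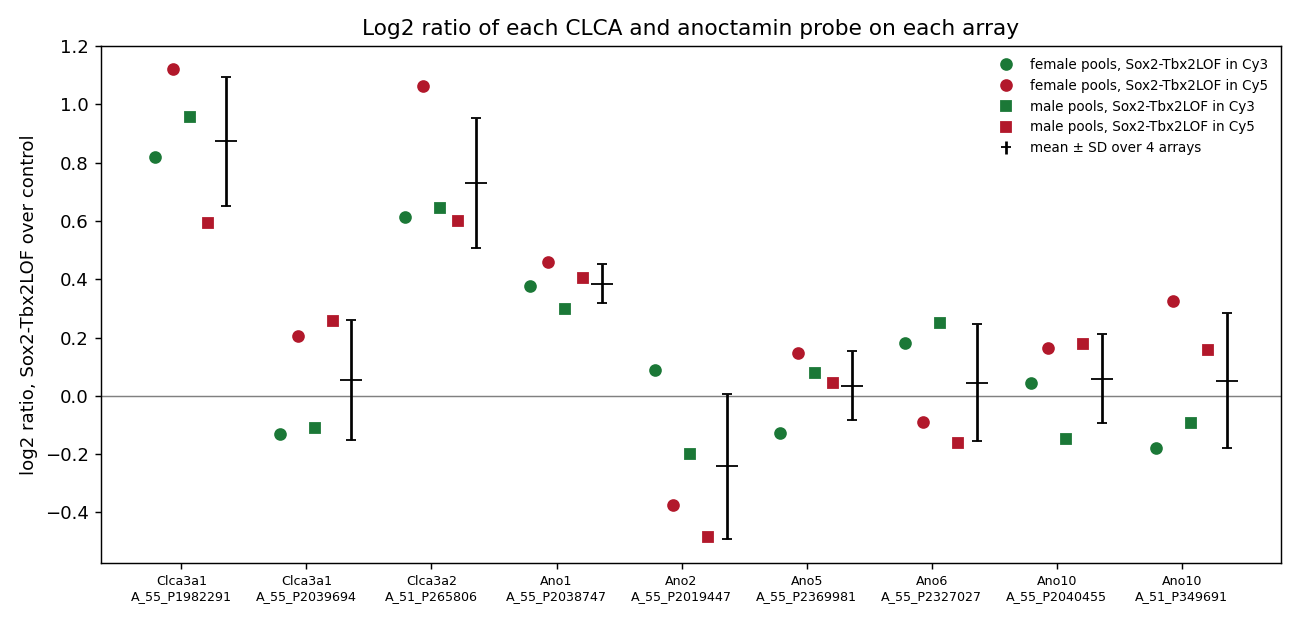
Log2 ratio of Sox2-Tbx2LOF over control for the 9 probes, 1 point an array (shape for sex, colour for the dye of the mutant RNA), with the mean and SD over 4 arrays in black. The means run from −0.24 for Ano2 to 0.87 for Clca3a1 A_55_P1982291.

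Over all 28104 tested probes, limma with Benjamini-Hochberg adjustment called 70, or 0.249%, as changed by 1.5-fold or more with the adjusted p below 0.05, and 2 of the 8 tested probes of these genes, Clca3a1 A_55_P1982291 and Clca3a2, were among them. The pools of the genotypes did not overlap for 2.53% of tested probes and for 3 of these 8, all 3 higher in the mutant (1.2% of all were higher and 1.33% lower without overlap). The ratio had 1 sign on 4 of 4 arrays for the same 3 probes and for 9.06% of all. As the genes were chosen with this contrast known, nothing is read from these counts. The median ratio was 0.06 over the 8 probes and 0.0022 over all tested probes, of which the middle range from the 5th to the 95th percentile spanned −0.10 to 0.11.

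The sex of the pools was not part of the choice and could be tested. None of the 8 probes differed detectably in level between the female and the male arrays by limma. The lowest adjusted p by limma was 0.692 (Ano2 and Ano10 A_51_P349691) and the lowest unadjusted p 0.0528. Of all tested probes, 0.0463% had an adjusted p under 0.05. With 2 arrays of each sex, a modest difference could go unseen. The largest difference was that of Ano2, lower in females by a log2 difference of −0.22 (SE 0.09), with levels from 9.31 to 9.76 in female and from 9.35 to 9.87 in male pools. The ratio between the genotypes did not differ detectably between the sexes for any of the 8 probes (limma, lowest unadjusted p = 0.114). The genes were selected on this ratio, and each sex had only 2 arrays, so nothing is read from this comparison. The mean ratios of Clca3a1 A_55_P1982291 were 0.97 in females and 0.78 in males, those of Clca3a2 0.84 and 0.62, and those of Ano1 0.42 and 0.35.

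The other genes of the families and of the chloride pathway were described in the same way. Of 69 such genes, all with a probe, 56 were tested, and none was called by limma (0%) against 0.249% of all tested probes. At that share a list of this size would most likely hold no call, so nothing is read from the count. None had an adjusted p under 0.05, and Significance Analysis of Microarrays (SAM) called none. An unadjusted p under 0.05 was found by limma for 7 of the 56 (3 higher and 4 lower). This is a larger share than the 7.11% of all tested probes. Their median log2 ratio was 0.01, beside 0.0022 over all tested probes.

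None of the 5 other CLCA genes (Clca1, Clca2, Clca3b, Clca4a and Clca4b) was tested. Their 5 probes were well above background on at most 1 array of a genotype, with levels of at most 6.45. Clca3a1 and Clca3a2 were thus the only CLCA genes with a level that could be compared.

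Of the 5 other anoctamins, 3 were tested. Ano3 was well above background on 2 of 4 arrays in each genotype and Ano7 on 1 Sox2-Tbx2LOF array, too few for the test. Ano4 had the lowest ratio, −0.18 ± 0.25 (SD, n = 4 arrays), with limma's adjusted p at 0.339, and Ano9 the highest at 0.06 ± 0.16. Of the bestrophins and tweety homologues, further families of chloride channels or proposed ones, 4 of 6 were tested and lay between −0.06 (Ttyh3) and 0.07 (Ttyh2).

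The other chloride channels, which took in the CLC, LRRC8 and CLIC families and Cftr, had 22 of 23 genes tested and a median ratio of 0.01. Clic6, of the intracellular chloride channel family, was lowest at −0.18 ± 0.06 (SD, n = 4 arrays; limma adjusted p = 0.244). Its pools did not overlap and its ratio was negative on 4 of 4 arrays. Cftr, the epithelial anion channel, was highest at 0.18 ± 0.44, with single arrays between −0.36 and 0.72.

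Of the chloride transporters, 14 of 16 were tested, with a median of 0.02. Slc12a7, a potassium chloride cotransporter, was highest at 0.09 ± 0.12. Slc26a1, a sulfate and anion exchanger, was lowest at −0.50 ± 0.57 (limma adjusted p = 0.270), with ratios of 0.35, −0.89, −0.77 and −0.69. Array 1 opposed the other arrays for this gene, and without array 1 its log2 ratio was −0.78 and it was called (limma adjusted p = 0.00139).

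The genes that act upstream of ANO1 in the supporting cell pathway were purinergic receptors, G proteins, phospholipases, store calcium channels and store-operated entry proteins. Of these, 13 of 14 were tested, with a median ratio of −0.01. P2ry1, the receptor that sets off calcium release in inner supporting cells, was lowest at −0.17 ± 0.11 (SD, n = 4 arrays; limma adjusted p = 0.274), negative on 4 of 4 arrays and without overlap between the pools. Itpr3, an inositol trisphosphate receptor of the calcium store, was highest at 0.18 ± 0.29 (adjusted p = 0.244) and positive on 3 of 4 arrays.

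**Figure D4:**
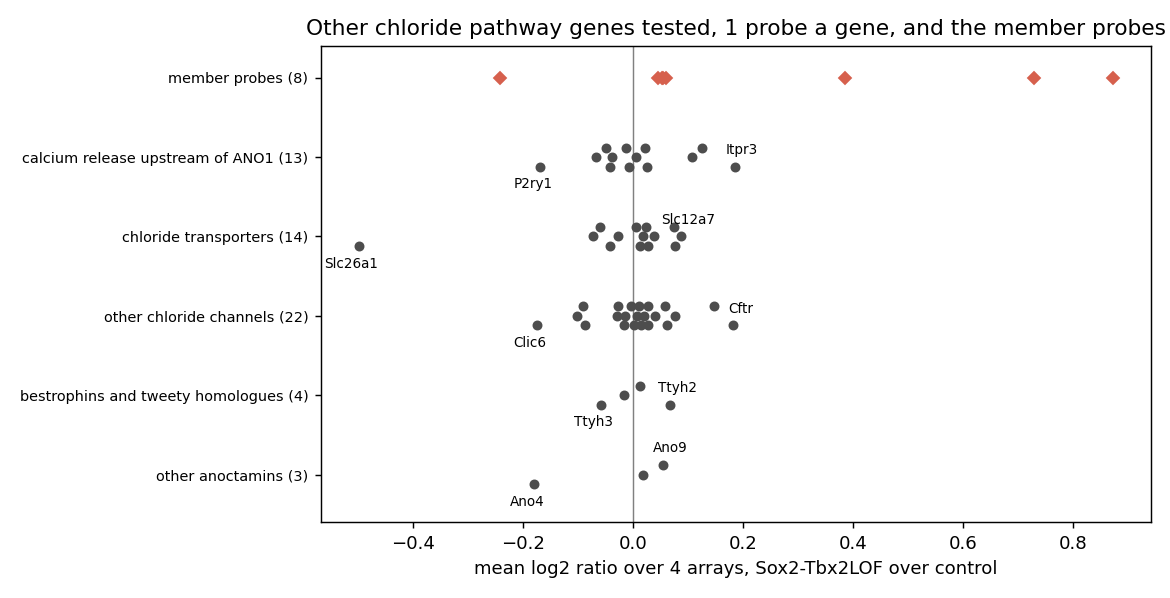
Mean log2 ratio of Sox2-Tbx2LOF over control over 4 arrays for the 56 tested genes of the chloride pathway lists, 1 point a gene (number tested in brackets), and for the 8 tested member probes as diamonds. The lowest and highest gene of each list are named. Slc26a1 at −0.50 lies apart from the other pathway genes, which lie between −0.18 and 0.18.

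Genes close to the channel genes on the chromosome were examined next, as position was not used in the choice. Within 1 Mb of a probe of the 7 genes lay 161 other tested probes of 108 named genes, of which limma called none, against 0.249% of all tested probes. An unadjusted p under 0.05 was found for 14 of them and for 7.11% of all tested probes. The adjusted p was under 0.05 for 3 of them, as it was for 0.982% of all tested probes. One of the 3, Fgf15, was tested through the control pools alone. The count was 2 where both genotypes had to be well above background on all arrays.

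Around Clca3a1 and Clca3a2, whose probes are 67.1 kb apart, none of 12 tested probes had an adjusted p under 0.05. The nearest tested gene on one side was Sh3glb1, 38.9 kb from the Clca3a1 probe, with ratios of −0.03 and 0.12 by its 2 probes. On the other side it was Odf2l, 338.1 kb from the Clca3a2 probe, with 0.09 ± 0.16 (SD, n = 4 arrays). Farther off, Ccn1, a matricellular protein gene 849.7 kb from the Clca3a2 probe that is named after its values were seen, had −0.24 ± 0.16 (limma adjusted p = 0.127). Its ratio was negative on 4 of 4 arrays and its pools did not overlap, and without array 2 the adjusted p was 0.0330.

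Near Ano1, the probe of Fadd at a distance of 10.4 kb had a ratio of 0.05 ± 0.11, and on the other side Gm10152 had −0.01 ± 0.10. Fgf15, which encodes a secreted fibroblast growth factor, lies 311.8 kb from the Ano1 probe and was lower in the mutant, with a log2 ratio of −0.41 (SE 0.05; limma adjusted p = 0.00836) and a negative ratio on 4 of 4 arrays. Its probe was well above background on 4 control arrays but on only 1 Sox2-Tbx2LOF array, so it was tested through the control pools alone. It was not tested where both genotypes had to be well above background on all arrays. Its ratio was −0.62 with a smaller background offset and −1.50 by the scanner software's own ratio, both past the minimum fold. The size of the ratio thus depends on how signal near background is treated.

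Near Ano2, Ntf3, the gene of neurotrophin 3, lies 61.4 kb away and was lower with a ratio of −0.33 (SE 0.05; limma adjusted p = 0.0262). It was negative on 4 of 4 arrays, at −0.36, −0.25, −0.27 and −0.42. Vwf, the nearest on the other side, had 0.13 ± 0.25. For Ntf3 the adjusted p was no longer under 0.05 without array 1 or array 3, without the dye term, with a term for sex, in the unpaired fit, with median centring, by the scanner software's ratio and in the authors' processed table.

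Near Ano5, Nell1, a secreted protein gene of bone formation, lies 731.1 kb away and was higher with 0.42 (SE 0.06; limma adjusted p = 0.00881), positive on 4 of 4 arrays. Its adjusted p was not under 0.05 in the unpaired fit and in the authors' processed table. The nearest tested gene was Slc17a6, 76.4 kb away, at −0.05 ± 0.38. Around Ano6 and Ano10 no probe had an adjusted p under 0.05. The nearest were D030018L15Rik at 100.5 kb from Ano6 (0.01 ± 0.11), and Snrk at 8.5 kb (0.09 ± 0.11) and Abhd5 at 116.9 kb (−0.06 ± 0.11) from Ano10.

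**Figure D5:**
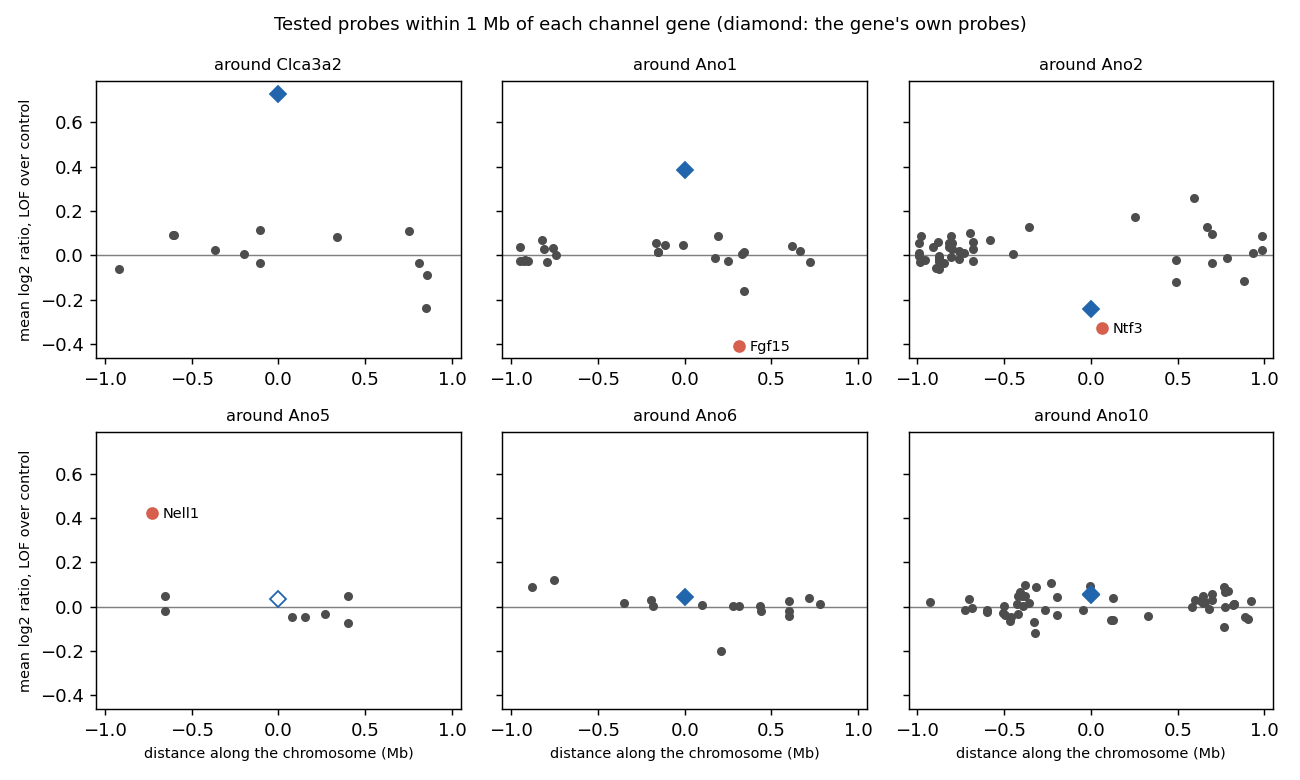
Mean log2 ratio over 4 arrays of the tested probes within 1 Mb of each channel gene, by distance along the chromosome (x axis, 0 at the gene's own probe). Diamonds are the gene's own probes (open where not above background) and red points are probes with an adjusted p under 0.05. Fgf15 and Nell1, at −0.41 and 0.42, lie 311.8 and 731.1 kb from Ano1 and Ano5, and Ntf3 at −0.33 is close to Ano2. Fgf15 was well above background on only 1 Sox2-Tbx2LOF array.

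The windows before the gene starts were searched for the letters bound by T-box factors such as TBX2, since Clca3a1 and Clca3a2 moved together. RefSeq (GRCm38.p6) gave 9 windows of 300 bases for the 7 genes, 250 before and 50 after a start. None held the T-box letters AGGTGTGA or their core GGTGTG on either strand, which 1.28% and 19% of all 32851 windows held, the first motif containing the second. In so few windows, 3 of them of Ano2, nothing is read from the lack of a match. Binding of TBX2 was not tested. The 250 bases before the start of Clca3a1, at chr3:144760978-144761227 on the minus strand, are given 5′ to 3′ in lower case, with no capitals as there was no match.

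Clca3a1: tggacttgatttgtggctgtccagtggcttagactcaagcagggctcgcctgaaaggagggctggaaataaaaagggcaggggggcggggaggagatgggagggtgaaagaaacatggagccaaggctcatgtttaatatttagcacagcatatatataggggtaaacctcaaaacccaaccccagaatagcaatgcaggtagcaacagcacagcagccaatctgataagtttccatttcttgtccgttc

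They hold 48.8% G and C, and the corresponding windows of Ano1 (72%) and Ano6 (68.4%) are richer.

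Genes with the most similar course over the 8 pools were listed for each Clca3a gene by the Pearson r of the level, as a description over pools that share arrays and genotypes. For Clca3a2 these were Hey2, a Notch effector (r = 0.98), Ren1, the gene of renin (0.98), Clca3a1 by A_55_P1982291 (0.98), Gm9564 (0.96) and Cyp2d40 (0.96). For the brighter Clca3a1 probe, A_55_P2039694, they were 4930520P13Rik (0.99), Endov (0.98), Plcd4 (0.97), Gm10631 (0.97) and Milr1 (0.97), all with mean ratios between 0.04 and 0.06. One of these, Endov, is among the probes alike to it in sequence. For the other Clca3a1 probe, a list added after the values were seen, they were Ren1 (0.98), Tectb (0.98), Clca3a2 (0.98), Cyp2d40 (0.98) and Jph1 (0.97). Ren1 and Cyp2d40 are on the lists of both genes. For Ano1, also added after the values were seen, they were Trim50 (0.99), Tectb (0.98), Nr2e1 (0.98), 2310065F04Rik (0.97) and Esr1 (0.97). The ratios were 0.60 ± 0.14 for Ren1 and 0.20 ± 0.04 for Cyp2d40 (SD, n = 4 arrays).

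Over all arrays, 70.4% to 75.2% of probe spots lay well above background, 3.23% to 3.56% were left out as outliers, none was saturated, and pools of a genotype correlated at 0.997 to 0.999. Tbx2 itself, whose probe was not placed inside or outside the deleted part and so does not check the labels, had ratios of −0.06, −0.24, −0.02 and −0.30. The tissue label held, as all 5 hair cell and all 6 supporting cell markers were tested. The inner hair cell list, which includes Tbx2, had its summed level lower in every mutant pool, with 5 of 5 genes below 0. The summed level of the outer hair cell list was higher, but of its 4 tested genes only Strip2 was called (0.75 ± 0.26), and Bcl11b (0.08), Ikzf2 (−0.04) and Insm1 (−0.10) were not, with a list median of 0.02. Of 45 markers of 9 other cell types 39 were tested and none was called by limma. An unadjusted p under 0.05 was found for 6 of the 39, a larger share than the 7.11% of all tested probes. Their ratios ran from −0.27 to 0.34, and no list's summed level separated the genotypes. Those not tested included Myh11 and Cnn1 of smooth muscle, Flt4 of lymphatic endothelium and Tyrp1 of melanocytes, and of the outer hair cell list Slc26a5 was not tested. Of the 6 with an unadjusted p under 0.05, 3 were mesenchymal genes with positive ratios, Col1a1 (0.34 ± 0.23), Dcn (0.23 ± 0.16, without overlap) and Col1a2 (0.17 ± 0.23). The mesenchymal list had 5 of 6 genes above 0, with a median of 0.12 and summed log2 levels of 17.67 to 17.78 in the mutant and 17.41 to 17.72 in the control pools. Its part in the ratios of the channel genes was not tested.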

How the data were processed

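Two-colour intensities were measured on 4 Agilent mouse arrays (design annotated on mm9) read on 1 slide in 1 scan. The authors deposited the scanner output of Agilent Feature Extraction 10.7.3.1, which holds spot intensities and backgrounds per channel and a log10 ratio of red over green, and a table of processed values, deposited as signed fold changes and treated here as a score. That table had a median of 1 on each array, its normalization is not given in the sources used here, and its direction was read from its correlation with the scanner ratios (r from 0.937 to 0.953).

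Mean signals were corrected with normexp (offset 50) and loess-normalized within arrays in limma 3.58.1 (R 4.3.3). For the channel levels, average intensities were then quantile-normalized between arrays. Levels printed, overlap of pools, Pearson r over the pools and the test of level by sex all rest on this step. Control spots had no weight, outlier spots were dropped and the 4 spots of a probe averaged. Each array's log2 ratio of Sox2-Tbx2LOF over control was fitted with a term for dye (lmFit, eBayes, Benjamini-Hochberg adjustment), since both pools of an array share its spots. P-values rest on the spread between 4 arrays that is left after the dye term, drawn towards that of all probes by eBayes. The SD printed after a mean ratio still holds the dye difference, so the p-values do not measure it. The number of arrays limits the precision. The study's methods name unpaired SAM, run here as an alternative. The fit was tested on simulated data.

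Probes were named through RefSeq (GRCm38.p6) by accession for 28328 of 39429 probes and otherwise as in the files. A gene on a list was taken by its brightest probe. Genes, lists and tests were chosen with earlier results of these data known. Named in the text are all probes of the 7 genes, pathway genes that passed a threshold or were highest or lowest in a list, neighbours that passed or were nearest, and the 5 most alike genes. Of the markers and the promoter sequences examined, 1 each is not reported here.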

Additional observations from a re-analysis of the deposited data

Results flagged for a closer look

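In the 27 sets of 4 values examined (ratio, mutant level and control level of 9 probes), 2 had one value far from the other 3, where chance gives about 1 in 20. For Clca3a2 the ratio of 1.06 on array 2 stood apart from 0.60 to 0.64 on the other arrays, and the gap was 0.909 of the range. Ano2 had a level of 9.67 in the Sox2-Tbx2LOF pool of array 3 against 9.35 to 9.40 in the other 3 mutant pools, and the gap was 0.839 of the range.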

How the results depend on the processing

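The 9 mean ratios were recomputed under 9 alternatives each, with the dye term in the fit where 1 array was left out. One of the 9, the unpaired fit, returns the same ratio by construction and could not move. Ano5, at background, had a ratio of 0 in the authors' processed table and −0.02 without array 3. No probe that was called changed sign. Of these 81 values 4 moved by more than the SD between arrays. All 4 belonged to the 2 dim Clca3a probes. Clca3a1 A_55_P1982291 rose to 1.14 by the scanner software's ratio and 1.13 in the authors' processed table, and Clca3a2 to 0.96 and 0.98. In the processed table neither probe was called. Over all probes, 124 were called by the scanner software's ratio, 1 in the processed table and 276 without a minimum fold, and between 66 and 106 when 1 array was left out (106 without array 1). Without the pairing of the 2 pools of an array (no replicate block) 59 were called, and SAM called 60. Among the pathway genes 0 to 1 were called when 1 array was left out (Slc26a1, without array 1). Near the 7 genes 1 probe, of Fgf15, was called with a normexp offset of 16 and 1 by the scanner software's ratio. The 3 neighbours with an adjusted p under 0.05 became 0 in the processed table and 1 in the unpaired fit, and 2 to 4 without 1 array. Females and males did not differ detectably in level for any of the 8 probes under any alternative tried. The causes of these shifts were not tested. With the smaller normexp offset of 16, the ratios were 0.98 for Clca3a1 A_55_P1982291, 0.83 for Clca3a2 and −0.62 for Fgf15. Each was larger in size than in the main fit. What part signal near background had in this was not tested.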
